A study of Mus musculus with 8 samples.

Results

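The Slc25 genes encode the mitochondrial carriers, membrane proteins that mostly sit in the inner mitochondrial membrane and move nucleotides, metabolites, cofactors and ions between the cytosol and the matrix. The inner membrane lets few solutes through unaided, so the carriers set which substrates reach the matrix enzymes and which products leave. In muscle the ADP/ATP carriers return ATP to the cytosol, the acylcarnitine carrier brings in fatty acyl groups for oxidation, and the mitoferrins bring in iron for haem and iron-sulfur clusters. PGC-1α is a transcriptional coactivator of mitochondrial energy metabolism that acts through factors such as ERRα and NRF-2 (GABP).

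Members were all genes whose annotated symbol is Slc25a followed by a number. Each was represented by its brightest probe set over all arrays among those annotated to that symbol alone. This gave 44 carriers, with 93 probe sets, of 18193 genes on the array. A probe set shared by Slc25a37 and Gm16867 was passed over. Of the 44 carriers, 31 lay above the median gene level of 125 intensity units and 13 did not.

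The cells were C2C12 myotubes, multinucleated fibres that an established line of mouse myoblasts forms once serum is lowered. Cells spent 3 days in 2% dialyzed serum, then received an adenovirus, and RNA was taken 3 days after that. The 4 groups were GFP-PGC-1α+DFO (virus for GFP-tagged PGC-1α, with 100 µM deferoxamine, an iron chelator), GFP-PGC-1α (the same virus alone), GFP+DFO (virus for GFP, with deferoxamine) and GFP (virus for GFP alone). All 4 thus carried a GFP-expressing adenovirus, and the sources used here do not name its promoter. Each group held 2 arrays, which the series design calls biological duplicates, and 2 arrays per group limit the precision of every value below.

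Ppargc1a, the gene of PGC-1α, read 7930.3 and 7710.5 intensity units in GFP-PGC-1α+DFO, against 26.6 and 88.1 in GFP+DFO. It read 7211 and 7036 in GFP-PGC-1α, against 28.6 and 37.3 in GFP, so the viral construct was seen on the 4 arrays labelled with it and on no other. Array medians were close, at 59.5 to 62.8 intensity units. The summed intensity of 8 myotube markers was 12217 to 12712 in GFP-PGC-1α+DFO, 41481 to 41592 in GFP-PGC-1α, 19853 to 19877 in GFP+DFO and 49638 to 52134 in GFP. For beta-actin, the 5′ over 3′ signal ratio, which drops as RNA degrades, was 0.753 and 0.811 in GFP-PGC-1α+DFO, 0.868 and 0.859 in GFP+DFO and 0.897 to 0.921 on the 4 arrays without DFO.

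With the construct, 9 carriers rose both with and without DFO. They were Slc25a4 and Slc25a5 for ADP/ATP, Slc25a20 for acylcarnitine, Slc25a12 for aspartate and glutamate, Slc25a11 for oxoglutarate, Slc25a26, Slc25a28, Slc25a29 and Slc25a39. Slc25a16 and Slc25a24 fell in both settings, calls that were lost when arrays were scaled to spike-in RNA. Of these, DFO lowered Slc25a4, Slc25a5, Slc25a11, Slc25a12, Slc25a20 and Slc25a39 in GFP cells, while Slc25a26, Slc25a28 and Slc25a29 were not called there. The citrate carrier Slc25a1 and the iron carrier Slc25a37 rose with DFO in both backgrounds. The second iron carrier, Slc25a28, rose with the construct and reached its highest values on the 2 arrays of GFP-PGC-1α+DFO. Scaling to spike-in RNA also ended the calls on the DFO falls in GFP cells of Slc25a4, Slc25a5, Slc25a11 and Slc25a20. It ended the calls on the rises of Slc25a4 and Slc25a28 with the construct without DFO as well. Changes are given as log2 differences of group means ± SE from limma, called where the Benjamini-Hochberg adjusted p over all 18193 genes was under 0.05.

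In GFP-PGC-1α against GFP, 13 of the 44 carriers rose and 2 fell, where 4.96% of all genes rose and 4.77% fell. The median log2 change was 0.24 over the 44 carriers and -0.08 over all genes. In GFP-PGC-1α+DFO against GFP+DFO, 15 rose and 2 fell, where 6.93% of all genes rose and 12% fell, with medians of 0.19 and -0.05. In GFP+DFO against GFP, 2 carriers rose and 11 fell, where 11.8% of all genes rose and 12.5% fell, with medians of -0.13 and -0.02. In GFP-PGC-1α+DFO against GFP-PGC-1α, 5 rose and 8 fell, where 11.4% of all genes rose and 14.2% fell, with medians of -0.09 and 0.01. Calls were more common among bright genes, and 31 of the 44 carriers lay above the median gene level. Of those carriers 38.7%, 45.2%, 6.45% and 16.1% rose, in the order of the comparisons above. Of all genes above that level, 8.41%, 11.2%, 19.1% and 17.5% rose. The shares that fell were 6.45%, 6.45%, 32.3% and 25.8% of those carriers. They were 7.64%, 21.0%, 20.7% and 23.6% of the genes above that level. The 4 comparisons share arrays pairwise, so they are not independent of each other.

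Across these 4 comparisons 25 carriers were called at least once and 19 never, 56.8% and 43.2%, where the shares of all genes were 39.5% and 60.5%. The shares in this paragraph were not split by gene level, though bright genes were called more often. With the construct 9 carriers (20.5%) rose both with and without DFO, where 3.41% of all genes did. By the call of each comparison alone, 4 (9.09%) rose only in the absence of DFO and 6 (13.6%) only in its presence, where the shares of all genes were 1.54% and 3.51%. With DFO 6 (13.6%) fell in both backgrounds, 5 (11.4%) in GFP cells alone and 2 (4.55%) in GFP-PGC-1α cells alone, where the shares of all genes were 8.91%, 3.56% and 5.29%. In the comparisons with GFP as the baseline, 7 carriers were both raised by the construct and lowered by DFO (Slc25a4, Slc25a5, Slc25a20, Slc25a12, Slc25a11, Slc25a33 and Slc25a39), 15.9% of the carriers, where 1.64% of all genes were. A call in one comparison and not in another does not show a difference between them, and the tests of those differences are given further on.

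**Figure D1:**
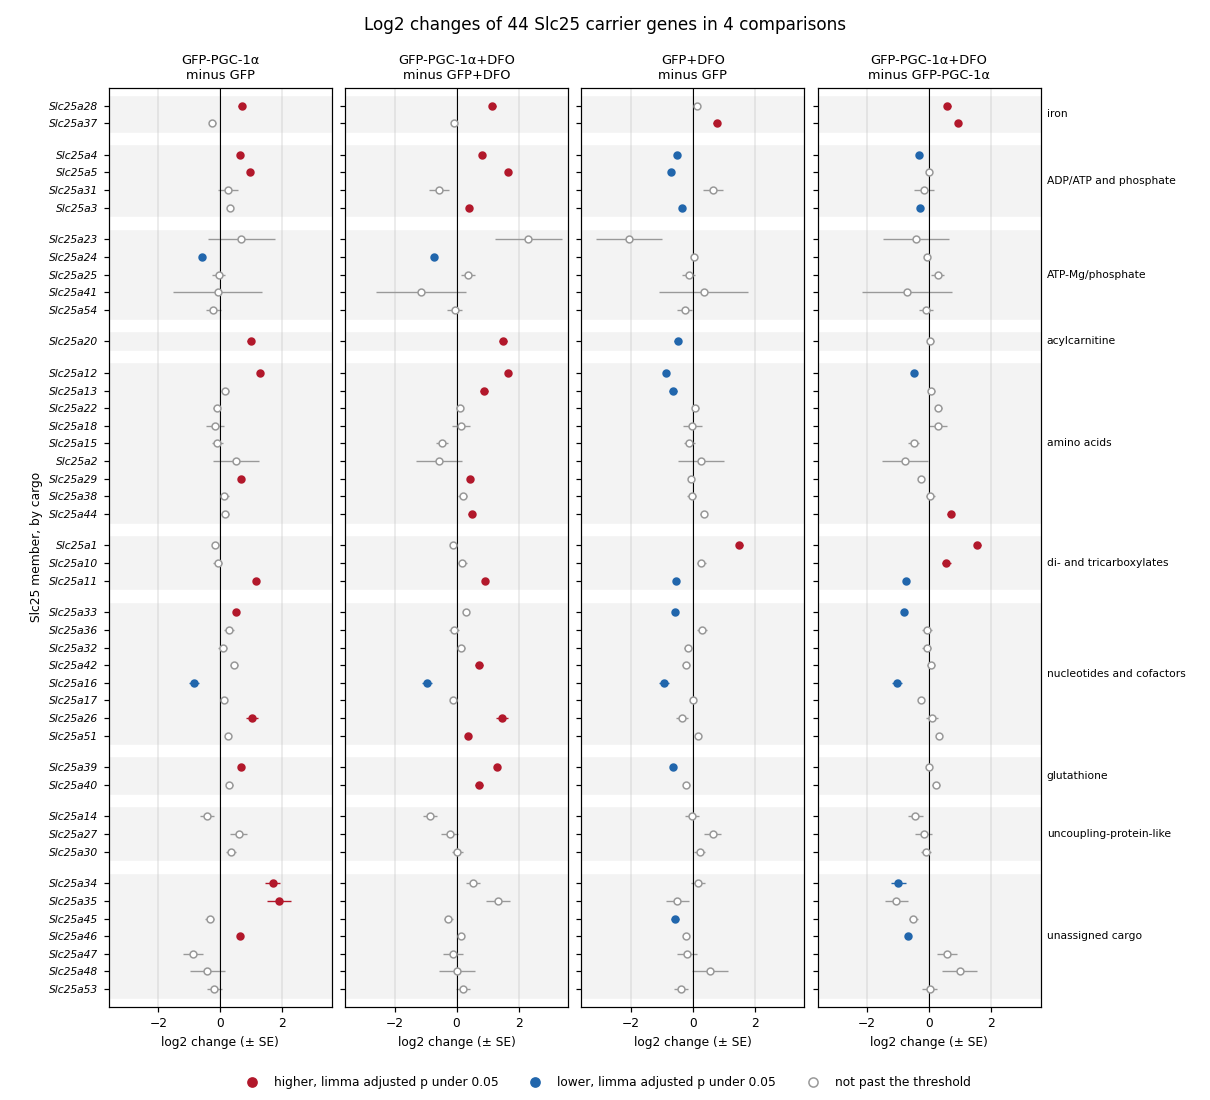
Log2 change ± SE (x axis) of the 44 Slc25 carriers (y axis, grouped by cargo) in 4 comparisons, one panel each, with red for called higher, blue for called lower and open grey for not called. Called carriers of the groups ADP/ATP and phosphate, acylcarnitine and amino acids lie right of 0 in both construct panels. Of the 11 calls left of 0 in the panel of GFP+DFO against GFP, 6 belong to the same groups.

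Counts rested on how arrays were scaled and on single arrays. With arrays scaled to 24 poly-A spike-in probe sets, an alternative chosen after seeing the data, the median of all genes moved to 0.09 and 0.57 for the construct without and with DFO, and to -0.02 and 0.45 for DFO in GFP and in GFP-PGC-1α cells. On that scale 6 carriers rose and 0 fell in GFP-PGC-1α against GFP, and 21 rose and 0 fell in GFP-PGC-1α+DFO against GFP+DFO. For DFO the calls were 2 higher and 2 lower in GFP cells, and 6 higher and 1 lower in GFP-PGC-1α cells. Among calls over all genes, 86.2%, 94.0%, 47.5% and 80.9% were then higher in the order of the 4 comparisons above, against 51.0%, 36.6%, 48.5% and 44.6% on the deposited scale. Among carrier calls the shares were 100%, 100%, 50% and 85.7%, against 86.7%, 88.2%, 15.4% and 38.5%. This scale moves every gene's log2 change alike, by 0.18 and 0.62 for the construct without and with DFO, by -0.00036 for DFO in GFP cells and by 0.44 for DFO in GFP-PGC-1α cells. It ended 9 of 15 calls for the construct without DFO (Slc25a4, Slc25a16, Slc25a24, Slc25a26, Slc25a28, Slc25a29, Slc25a33, Slc25a39 and Slc25a46) and 2 of 17 with DFO (Slc25a16 and Slc25a24). For DFO it ended 9 of 13 calls in GFP cells (Slc25a3, Slc25a4, Slc25a5, Slc25a11, Slc25a13, Slc25a20, Slc25a33, Slc25a39 and Slc25a45) and 7 of 13 in GFP-PGC-1α cells (Slc25a3, Slc25a4, Slc25a11, Slc25a12, Slc25a33, Slc25a34 and Slc25a46). In GFP cells the log2 changes with DFO hardly moved. The 9 calls there thus ended through the estimated spread and the adjustment over all genes, not through changed values. The sign turned for 7, 11, 0 and 14 of the 44 carriers, of which Slc25a3 and Slc25a4 with DFO in GFP-PGC-1α cells had been called. Scaled to all 27 spike-in probe sets, as first planned, 12 carriers rose and 0 fell in GFP-PGC-1α against GFP. That ended 3 of its 15 calls (Slc25a16, Slc25a24 and Slc25a33), and Slc25a5 kept its call with DFO in GFP cells. The spike-in scale named below is that of the 24 probe sets. Changes and calls below are those on the deposited scale. Leaving out 1 array left between 3 (without either GFP-PGC-1α array) and 13 of the 15 calls in GFP-PGC-1α against GFP, with 5 and 7 without GFP replicate 1 and 2 and 7 without either GFP+DFO array. In GFP-PGC-1α+DFO against GFP+DFO, 8 were called without either GFP+DFO array and 10 without GFP-PGC-1α+DFO replicate 2. In GFP+DFO against GFP the count was 6 without GFP replicate 1, and 6 and 5 without GFP+DFO replicate 1 and 2, and in GFP-PGC-1α+DFO against GFP-PGC-1α it was 7 without GFP-PGC-1α replicate 1.

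The iron carriers took different courses. Slc25a28, mitoferrin-2, the broadly expressed carrier for iron entry, read 684 and 619.9 intensity units in GFP-PGC-1α+DFO, 443 and 427 in GFP-PGC-1α, 284 and 303 in GFP+DFO and 289.7 and 249 in GFP. Both construct groups lay above both GFP groups with no overlap, the 2 arrays of GFP-PGC-1α+DFO lay above all others, and GFP+DFO overlapped GFP. Slc25a28 rose by 0.69 ± 0.11 in GFP-PGC-1α against GFP (limma adjusted p = 0.0241) and by 1.15 ± 0.11 in GFP-PGC-1α+DFO against GFP+DFO (adjusted p = 0.00357). With DFO it rose by 0.58 ± 0.11 in GFP-PGC-1α cells (adjusted p = 0.0179) and differed by 0.13 ± 0.11 in GFP cells (adjusted p = 0.49). The call without DFO held only when a GFP-PGC-1α+DFO array was the one left out and ended without any other array (adjusted p 0.0622 to 0.13). The DFO call in GFP-PGC-1α cells ended without either GFP-PGC-1α array or without GFP-PGC-1α+DFO replicate 1 (adjusted p 0.0633 to 0.0829). The construct's call with DFO remained without each array in turn.

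Slc25a37, mitoferrin-1, known for supplying iron to developing red cells, read 1312 and 1124 in GFP-PGC-1α+DFO, 642 and 629 in GFP-PGC-1α, 1332 and 1257 in GFP+DFO and 751 and 769 in GFP. The 4 arrays with DFO lay above the 4 without it, whichever virus was used. With DFO it rose by 0.93 ± 0.10 in GFP-PGC-1α cells (adjusted p = 0.00298) and by 0.77 ± 0.10 in GFP cells (adjusted p = 0.00586), and both calls remained without each array in turn. With the construct it differed by -0.26 ± 0.10 without DFO (adjusted p = 0.186) and by -0.09 ± 0.10 with DFO (adjusted p = 0.618). The sign of that last value turned on the spike-in scale, after quantile normalization and without GFP-PGC-1α+DFO replicate 2. Each mitoferrin had 1 probe set that could be used, so neither has a second measurement on the array.

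The 250 bases before the start of Slc25a28 are shown because this carrier rose with the construct and, in GFP-PGC-1α cells, with DFO. They lie at chr19:43674882-43675131 on the minus strand (RefSeq, GRCm38.p6) and are written 5′ to 3′ in the direction of the gene. Capitals mark a match to ACGTG, the core of the hypoxia response element, which was searched on both strands.
Slc25a28: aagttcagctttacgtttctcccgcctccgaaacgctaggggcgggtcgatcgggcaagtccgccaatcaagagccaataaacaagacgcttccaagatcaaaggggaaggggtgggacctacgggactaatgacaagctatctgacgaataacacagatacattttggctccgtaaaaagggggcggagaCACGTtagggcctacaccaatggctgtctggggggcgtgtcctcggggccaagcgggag
The iron chelator is known to stabilise hypoxia-inducible factors in cultured cells, which is why this core was looked for. It was present in 16.6% of all 32851 windows of this length and in 25.6% of the 43 windows of the carriers, 11 windows of 10 genes. Those windows covered 34 of the 44 carriers. Slc25a37 had no window, so neither this core nor those below were looked for there. A match is a description of the letters and says nothing of whether a factor bound there.

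Both ADP/ATP carriers of somatic cells rose with the construct, with and without DFO. Slc25a4, ANT1, the main isoform of heart and skeletal muscle, read 7211 and 7197 in GFP-PGC-1α+DFO, 8959 and 9089.8 in GFP-PGC-1α, 4069 and 4118 in GFP+DFO and 5865 and 5726 in GFP. Its 4 groups did not overlap and ran in the order GFP-PGC-1α, GFP-PGC-1α+DFO, GFP, GFP+DFO. It rose by 0.64 ± 0.07 in GFP-PGC-1α against GFP (adjusted p = 0.0104) and by 0.82 ± 0.07 in GFP-PGC-1α+DFO against GFP+DFO (adjusted p = 0.00294). With DFO it fell by 0.32 ± 0.07 in GFP-PGC-1α cells (adjusted p = 0.0296) and by 0.50 ± 0.07 in GFP cells (adjusted p = 0.00769). The fall in GFP-PGC-1α cells was lost without any 1 array (adjusted p 0.0517 to 0.12) and had the opposite sign on the spike-in scale. The rise without DFO was lost without any array of GFP-PGC-1α or GFP (adjusted p 0.0522 to 0.0761), and the fall in GFP cells without either GFP+DFO array (adjusted p 0.0604 and 0.0639).

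Slc25a5, ANT2, the isoform of proliferating and many other cells, read 8266 and 8289 in GFP-PGC-1α+DFO, 8368 and 8415 in GFP-PGC-1α, 2638 and 2641 in GFP+DFO and 4256 and 4317 in GFP. Both construct groups lay above both GFP groups and close to each other, while GFP+DFO lay below GFP. The construct raised Slc25a5 by 0.97 ± 0.07 without DFO (adjusted p = 0.00388) and by 1.65 ± 0.07 with it (adjusted p = 0.000776). DFO lowered it by 0.70 ± 0.07 in GFP cells (adjusted p = 0.00263), and the difference in GFP-PGC-1α cells was -0.02 ± 0.07 (adjusted p = 0.881, 95% interval -0.20 to 0.17). These 3 calls remained without each array in turn. Slc25a3, the phosphate carrier that supplies ATP synthase, changed less. It rose by 0.39 ± 0.08 with the construct under DFO (adjusted p = 0.0257), fell by 0.36 ± 0.08 with DFO in GFP cells (adjusted p = 0.0245) and by 0.28 ± 0.08 with DFO in GFP-PGC-1α cells (adjusted p = 0.0499), and without DFO the construct gave 0.31 ± 0.08 (adjusted p = 0.0693). Its DFO call in GFP-PGC-1α cells ended without any 1 array (adjusted p 0.0703 to 0.188) and its sign turned on the spike-in scale and when its probe sets were averaged. The other 2 calls each held with 2 of the 8 arrays left out and ended with the other 6 (adjusted p 0.0544 to 0.155 and 0.0573 to 0.14). Slc25a31, ANT4, a carrier of male germ cells, read 9.01 to 20.1 on all 8 arrays and was not called.

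The promoter of Slc25a4 is shown as that of a carrier raised by the construct in both settings. It lies at chr8:46211063-46211312 on the minus strand (RefSeq, GRCm38.p6), and capitals mark a match to CCGGAAG, the core bound by NRF-2 (GABP).
Slc25a4: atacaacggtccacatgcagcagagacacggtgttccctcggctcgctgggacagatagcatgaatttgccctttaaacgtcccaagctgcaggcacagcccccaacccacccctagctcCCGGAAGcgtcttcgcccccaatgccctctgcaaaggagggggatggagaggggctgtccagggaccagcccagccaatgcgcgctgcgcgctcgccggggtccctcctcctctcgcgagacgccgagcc
The same core was found in the window of Slc25a20, the acylcarnitine carrier, at chr9:108661886-108662135 on the plus strand.
Slc25a20: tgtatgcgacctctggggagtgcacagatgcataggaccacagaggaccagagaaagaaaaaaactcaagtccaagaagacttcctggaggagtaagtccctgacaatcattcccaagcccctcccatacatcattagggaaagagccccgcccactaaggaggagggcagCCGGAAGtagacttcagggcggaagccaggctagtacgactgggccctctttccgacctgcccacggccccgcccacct
CCGGAAG, searched on both strands, was in 6.91% of all windows and in 14.0% of the carriers' windows, 6 of 43. The genes were Slc25a3, Slc25a4, Slc25a17, Slc25a20, Slc25a38 and Slc25a54. Slc25a4 and Slc25a20 rose with the construct in both settings and Slc25a3 under DFO, while Slc25a17, Slc25a38 and Slc25a54 were not called in any of the 4 comparisons. TNAAGGTCA, the element of the ERR receptors, was in 1.14% of all windows and in 0 of the carriers' 43, which says only that these letters are not in these windows.

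Slc25a20, the carnitine-acylcarnitine carrier, read 789 and 749 in GFP-PGC-1α+DFO, 767 and 737 in GFP-PGC-1α, 295 and 251 in GFP+DFO and 363 and 402 in GFP. Both construct groups overlapped each other and lay above GFP and GFP+DFO, and GFP+DFO lay below GFP. It rose with the construct by 0.98 ± 0.12 without DFO (adjusted p = 0.0107) and by 1.50 ± 0.12 with DFO (adjusted p = 0.00189). DFO lowered it by 0.49 ± 0.12 in GFP cells (adjusted p = 0.0337), against 0.03 ± 0.12 in GFP-PGC-1α cells (adjusted p = 0.881). The rise without DFO was lost without GFP replicate 1 or either GFP-PGC-1α array (adjusted p 0.0603 to 0.0797). The fall held only without a GFP-PGC-1α+DFO array and was lost without any other array (adjusted p 0.0585 to 0.161).

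Among the 9 amino acid carriers, 2 rose and 0 fell with the construct without DFO, and 4 rose and 0 fell with DFO present. Of all genes, 4.96% rose and 4.77% fell without DFO, and 6.93% rose and 12% fell with it. Slc25a12, the aspartate/glutamate carrier of muscle and brain and a member of the malate-aspartate shuttle, read 2710.5 and 2645 in GFP-PGC-1α+DFO, 3686 and 3909 in GFP-PGC-1α, 856 and 831 in GFP+DFO and 1546 and 1551 in GFP. Its 4 groups did not overlap. The construct raised it by 1.29 ± 0.08 without DFO (adjusted p = 0.00265) and by 1.67 ± 0.08 with DFO (adjusted p = 0.000776). DFO lowered it by 0.50 ± 0.08 in GFP-PGC-1α cells (adjusted p = 0.00901) and by 0.88 ± 0.08 in GFP cells (adjusted p = 0.0017). Of these calls 1, for DFO in GFP-PGC-1α cells, was lost, without GFP-PGC-1α replicate 2 (adjusted p = 0.0551 there, 0.0218 to 0.0551 over the 8 arrays), and on the spike-in scale its value was -0.06.

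Slc25a13, citrin, the liver form of the same carrier, rose by 0.87 ± 0.13 with the construct under DFO (adjusted p = 0.0102) and fell by 0.64 ± 0.13 with DFO in GFP cells (adjusted p = 0.0194), at 22.5 to 47.2 intensity units throughout. Its first call ended without either GFP+DFO array (adjusted p 0.065 and 0.0751) and its second without any GFP or GFP+DFO array (adjusted p 0.0791 to 0.113). Slc25a29, a carrier of basic amino acids, rose with the construct by 0.66 ± 0.09 without DFO (adjusted p = 0.0153) and by 0.44 ± 0.09 with it (adjusted p = 0.0288). The first was lost without any array of GFP-PGC-1α or GFP (adjusted p 0.0692 to 0.0981) and the second without any 1 array (adjusted p 0.0522 to 0.168). The glutamate carriers Slc25a22 and Slc25a18, the ornithine carriers Slc25a15 and Slc25a2 and the glycine carrier Slc25a38 were not called in any of the 4 comparisons.

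Slc25a44, a carrier of branched-chain amino acids described in mouse brown fat, read 603 and 540.3 in GFP-PGC-1α+DFO, 331 and 378 in GFP-PGC-1α, 392 and 423 in GFP+DFO and 331 and 307 in GFP. Its highest values were on the 2 arrays of GFP-PGC-1α+DFO, and GFP-PGC-1α overlapped GFP. With DFO it rose by 0.69 ± 0.12 in GFP-PGC-1α cells (adjusted p = 0.0113) and differed by 0.35 ± 0.12 in GFP cells (adjusted p = 0.0884). With the construct it rose by 0.49 ± 0.12 under DFO (adjusted p = 0.0428) and differed by 0.15 ± 0.12 without it (adjusted p = 0.461). The DFO call was lost without GFP-PGC-1α replicate 1 (adjusted p = 0.0628 there, 0.0245 to 0.0628 over the 8 arrays) and the construct call without any 1 array (adjusted p 0.0643 to 0.21).

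The 3 carriers of di- and tricarboxylates each differed in course. Slc25a1, the citrate carrier that exports citrate for cytosolic acetyl-CoA, read 1205 and 1239 in GFP-PGC-1α+DFO, 381 and 455 in GFP-PGC-1α, 1261 and 1379.9 in GFP+DFO and 465 and 464 in GFP. The 4 arrays with DFO stood far above the 4 without. It rose with DFO by 1.55 ± 0.11 in GFP-PGC-1α cells (adjusted p = 0.000811), a 2.93-fold rise, and by 1.51 ± 0.11 in GFP cells (adjusted p = 0.00103), a 2.84-fold rise. The construct gave -0.16 ± 0.11 without DFO (adjusted p = 0.436) and -0.11 ± 0.11 with it (adjusted p = 0.584), and 0.02 and 0.51 on the spike-in scale (adjusted p = 0.981 and 0.147). Both DFO calls remained without each array in turn.

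The window before Slc25a1 is shown beside its rise with DFO. It lies at chr16:17928220-17928469 on the minus strand (RefSeq, GRCm38.p6), and capitals mark CACGTG, in which ACGTG matches on both strands with an overlap.
Slc25a1: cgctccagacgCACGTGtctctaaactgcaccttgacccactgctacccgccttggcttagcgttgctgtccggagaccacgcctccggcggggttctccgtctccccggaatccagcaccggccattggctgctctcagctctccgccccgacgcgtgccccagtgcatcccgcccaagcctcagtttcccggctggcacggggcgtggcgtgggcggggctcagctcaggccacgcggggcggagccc
Among the 34 carriers with a window, which leave out Slc25a37, ACGTG was found for 10. These were Slc25a1, Slc25a3, Slc25a13, Slc25a14, Slc25a15, Slc25a28, Slc25a30, Slc25a31, Slc25a33 and Slc25a36. With DFO Slc25a1 and Slc25a28 rose in at least 1 background, Slc25a3, Slc25a13 and Slc25a33 fell in at least 1, and the other 5 were not called.

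Slc25a11, the oxoglutarate/malate carrier and the partner of Slc25a12 in the malate-aspartate shuttle, averaged 1670 ± 45.0 in GFP-PGC-1α+DFO, 2822 ± 64.8 in GFP-PGC-1α, 882 ± 49.9 in GFP+DFO and 1278 ± 76.5 in GFP (SD, n = 2 each). It rose with the construct by 1.14 ± 0.09 without DFO (adjusted p = 0.00443) and by 0.92 ± 0.09 with it (adjusted p = 0.00371), and fell with DFO by 0.76 ± 0.09 in GFP-PGC-1α cells (adjusted p = 0.00391) and by 0.53 ± 0.09 in GFP cells (adjusted p = 0.0127). The fall in GFP cells was lost without GFP replicate 1 or either GFP+DFO array (adjusted p 0.0569 to 0.089), and the other 3 calls remained without each array in turn. Slc25a10, the dicarboxylate carrier, was called higher with DFO in GFP-PGC-1α cells at 0.55 ± 0.15 (adjusted p = 0.0473). That call was lost without any 1 array (adjusted p 0.0562 to 0.177), and its other probe set above the median gene level gave -0.15.

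Of the 8 carriers of nucleotides and cofactors, Slc25a16 was lowered by both treatments. Slc25a16, the Graves disease carrier, linked in yeast to coenzyme A in mitochondria, read 156 and 128 in GFP-PGC-1α+DFO, 323 and 263 in GFP-PGC-1α, 289 and 264 in GFP+DFO and 559 and 497 in GFP. All arrays of GFP lay above, and both of GFP-PGC-1α+DFO below, the 4 arrays with 1 treatment. The construct lowered it by 0.86 ± 0.16 without DFO (adjusted p = 0.0348) and by 0.97 ± 0.16 with DFO (adjusted p = 0.0153). DFO lowered it by 1.05 ± 0.16 in GFP-PGC-1α cells (adjusted p = 0.00814) and by 0.93 ± 0.16 in GFP cells (adjusted p = 0.0124). The 2 treatments together, GFP-PGC-1α+DFO against GFP, gave -1.90 ± 0.16 (adjusted p = 0.000832). Its construct calls were lost without any array of GFP-PGC-1α, GFP+DFO or GFP in the comparison without DFO (adjusted p 0.0849 to 0.15), and without GFP-PGC-1α+DFO replicate 2 or either GFP+DFO array in the comparison with DFO (adjusted p 0.0602 to 0.102). Its DFO call in GFP cells was lost without GFP replicate 1 or either GFP+DFO array (adjusted p 0.0591 to 0.0812), while the call in GFP-PGC-1α cells remained without each array in turn.

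Slc25a33, a pyrimidine nucleotide carrier, read 475 and 453 in GFP-PGC-1α+DFO, 769.7 and 852 in GFP-PGC-1α, 378 and 383 in GFP+DFO and 577 and 553 in GFP. The groups did not overlap, and both groups without DFO lay above both with it. It fell with DFO by 0.80 ± 0.09 in GFP-PGC-1α cells (adjusted p = 0.00308) and by 0.57 ± 0.09 in GFP cells (adjusted p = 0.00964). The construct raised it by 0.52 ± 0.09 without DFO (adjusted p = 0.0289) and gave 0.29 ± 0.09 with it (adjusted p = 0.0904). The rise held only without a GFP-PGC-1α+DFO array (adjusted p 0.0849 to 0.117 without the others), and the fall in GFP cells was lost without GFP replicate 1 or either GFP+DFO array (adjusted p 0.0537 to 0.07).

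Slc25a26, which imports the methyl donor S-adenosylmethionine, averaged 205.9 ± 0.304 in GFP-PGC-1α+DFO, 193 ± 3.75 in GFP-PGC-1α, 74.8 ± 8.04 in GFP+DFO and 96.6 ± 26.8 in GFP (SD, n = 2 each). It rose with the construct by 1.03 ± 0.20 without DFO (adjusted p = 0.0397) and by 1.47 ± 0.20 with it (adjusted p = 0.00904). The first call held only without GFP replicate 2 (adjusted p 0.0635 to 0.167 without the others) and the second was lost without either GFP+DFO array (adjusted p 0.0544 and 0.0658). Slc25a42, a coenzyme A carrier, and Slc25a51, the NAD carrier, were called higher with the construct under DFO, at 0.72 ± 0.13 (adjusted p = 0.0219) and 0.37 ± 0.09 (adjusted p = 0.0472). The first was lost without any array of GFP-PGC-1α+DFO or GFP+DFO (adjusted p 0.0505 to 0.123), and the second without any 1 array (adjusted p 0.065 to 0.22). The other probe set of Slc25a51 above the median gene level gave 0.00165 in that comparison, against 0.37 for the one used. Slc25a36, a second pyrimidine nucleotide carrier, Slc25a32 for folate and flavin, and Slc25a17, a carrier of peroxisomes, were not called in the 4 comparisons.

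Of the 2 glutathione carriers, Slc25a39 averaged 6832 ± 172 in GFP-PGC-1α+DFO, 6847 ± 28.2 in GFP-PGC-1α, 2782 ± 133 in GFP+DFO and 4293 ± 19.0 in GFP (SD, n = 2 each). The construct raised it by 0.67 ± 0.08 without DFO (adjusted p = 0.0111) and by 1.30 ± 0.08 with DFO (adjusted p = 0.00124), and DFO lowered it by 0.63 ± 0.08 in GFP cells (adjusted p = 0.00492). The first of these was lost without any array of GFP-PGC-1α or GFP (adjusted p 0.0546 to 0.0826). Slc25a40, its close relative, rose with the construct under DFO by 0.72 ± 0.12 (adjusted p = 0.0155), a call lost without GFP-PGC-1α+DFO replicate 2 or either GFP+DFO array (adjusted p 0.0653 to 0.106).

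Of the 5 carriers listed as ATP-Mg/phosphate carriers, which adjust the adenine nucleotide pool of the matrix, 1 was called. Of all genes, 39.5% were called in at least 1 of the 4 comparisons. Slc25a24, a calcium-regulated member, read 699 and 649 in GFP-PGC-1α+DFO, 738 and 693 in GFP-PGC-1α, 1148 and 1087 in GFP+DFO and 1095 and 1080.3 in GFP. All 4 arrays with the construct lay below all 4 with GFP, and DFO did not separate them. The construct lowered it by 0.61 ± 0.09 without DFO (adjusted p = 0.0186) and by 0.73 ± 0.09 with DFO (adjusted p = 0.00618). The first call held only without a GFP-PGC-1α+DFO array (adjusted p 0.0616 to 0.0938 without the others) and the second was lost without GFP+DFO replicate 1 (adjusted p = 0.0615 there, 0.0156 to 0.0615 over the 8 arrays). On the spike-in scale the changes were -0.43 and -0.11 and neither was called (adjusted p = 0.241 and 0.589). Slc25a23, Slc25a41 and Slc25a54 lay at or below 44.9 intensity units on all arrays and Slc25a25 read 138 to 230.01, and none was called. The uncoupling-protein-like members Slc25a14, Slc25a27 and Slc25a30 were not called in the 4 comparisons either.

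Among the 7 members left here without an assigned cargo, Slc25a34 and Slc25a35 had the largest log2 changes of the 44 carriers called in GFP-PGC-1α against GFP. Slc25a35 read 123 and 144 in GFP-PGC-1α+DFO, 279 and 275 in GFP-PGC-1α, 57.8 and 47.6 in GFP+DFO and 111 and 49.9 in GFP. Slc25a34 read 131 and 135 in GFP-PGC-1α+DFO, 257 and 273 in GFP-PGC-1α, 87.3 and 96.1 in GFP+DFO and 104 and 64.8 in GFP. For both, GFP-PGC-1α lay above every other group, and the 2 GFP arrays were far apart and overlapped GFP+DFO. The construct raised Slc25a35 by 1.90 ± 0.38 (adjusted p = 0.0408) and Slc25a34 by 1.69 ± 0.23 (adjusted p = 0.0156) without DFO, against 1.34 ± 0.38 (adjusted p = 0.0677) and 0.54 ± 0.23 (adjusted p = 0.181) with DFO. DFO lowered Slc25a34 by 0.99 ± 0.23 in GFP-PGC-1α cells (adjusted p = 0.0308). The call on Slc25a35 held only without GFP replicate 1 or 2 (adjusted p 0.0648 to 0.166 without the others). Those on Slc25a34 were lost without any array of GFP-PGC-1α or GFP+DFO for the construct (adjusted p 0.0527 to 0.0897) and without any array other than those of GFP for DFO (adjusted p 0.0658 to 0.116).

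Slc25a46, an outer-membrane protein of mitochondrial shape rather than a known transporter, averaged 1448 ± 65.1 in GFP-PGC-1α+DFO, 2332 ± 45.8 in GFP-PGC-1α, 1302 ± 11.3 in GFP+DFO and 1507 ± 10.9 in GFP (SD, n = 2 each). It rose with the construct without DFO by 0.63 ± 0.08 (adjusted p = 0.0128) and fell with DFO in GFP-PGC-1α cells by 0.69 ± 0.08 (adjusted p = 0.00335). The rise held only without a GFP-PGC-1α+DFO array (adjusted p 0.0531 to 0.0838 without the others), while the fall remained without each array in turn. Slc25a45 fell with DFO in GFP cells by 0.58 ± 0.14 (adjusted p = 0.0345), a call that held only without a GFP-PGC-1α+DFO array (adjusted p 0.051 to 0.151 without the others). Slc25a47, Slc25a48 and Slc25a53 were not called.

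**Figure D2:**
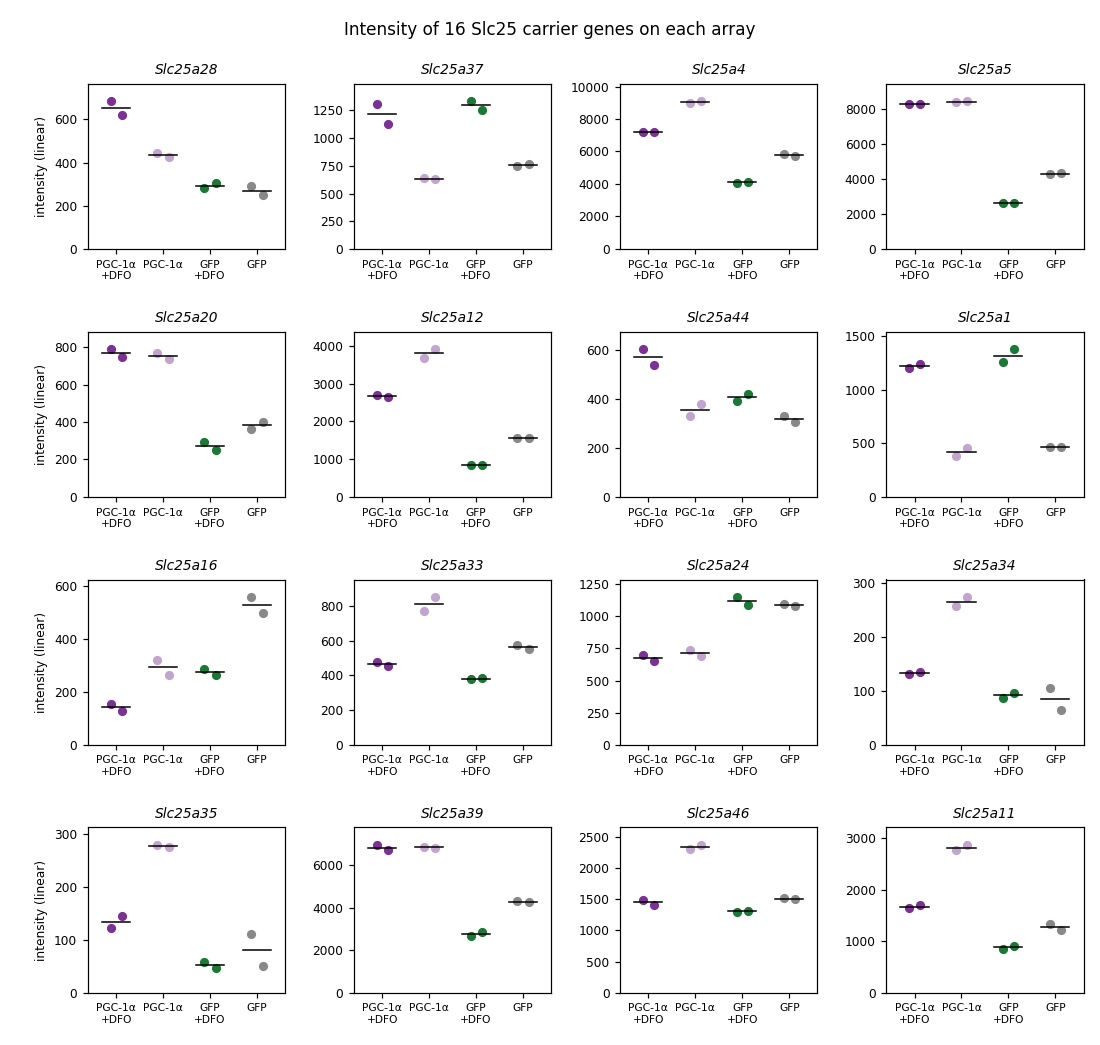
Linear intensity (y axis, from 0) of 16 carriers on each of the 8 arrays, as points by group (x axis, PGC-1α standing for GFP-PGC-1α), with a line at the group mean. Slc25a1 and Slc25a37 are high in both DFO groups, Slc25a5, Slc25a20 and Slc25a39 are high in both construct groups, and Slc25a28 and Slc25a44 are highest in GFP-PGC-1α+DFO.

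The markers moved with both treatments. Falls with DFO were measured in cultures whose myotube markers also fell, 8 of 8 in GFP-PGC-1α cells and 7 of 8 in GFP cells. Of all genes, 14.2% and 12.5% fell in those 2 backgrounds. Myog, the myogenic regulator myogenin, read 63.1 and 71.1 in GFP-PGC-1α+DFO, against 5296 and 5245 in GFP-PGC-1α, and 174 and 141 in GFP+DFO, against 5223 and 5330.3 in GFP. The summed intensity of 7 myoblast or reserve cell markers was 2753 to 3163 in GFP-PGC-1α+DFO, against 2389 to 2407 in GFP-PGC-1α, and 2237 to 2399 in GFP+DFO, against 1695 to 1839 in GFP. Its members did not move together: 3 rose and 1 fell with DFO in GFP-PGC-1α cells and 4 rose and 2 fell in GFP cells, with Myf5, a myogenic regulator, lower in both. That of 5 fibroblast markers was 9375 to 9929 in GFP-PGC-1α+DFO, against 10988 to 11016 in GFP-PGC-1α, and 12972 to 13148 in GFP+DFO, against 11488 to 11718 in GFP. Adipocyte markers summed to 66.2 to 188 on all arrays over 3 genes, and no marker of any list was at the lowest listed value of 1 throughout. With the construct, 3 of 8 myotube markers fell without DFO, and with DFO 6 fell and 1 rose, as 3 of 5 fibroblast markers fell. On the spike-in scale, the calls on all 3 myotube markers that fell without DFO, on 5 of the 6 that fell with DFO and on all 3 fibroblast markers were lost. In bulk RNA, fewer cells of a type and less RNA per cell cannot be told apart. The part of these markers, and of the beta-actin ratios given above, in the carriers' changes was not tested.

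Whether the construct's effect differed with DFO was tested as an interaction, the log2 change in GFP-PGC-1α+DFO against GFP+DFO minus that in GFP-PGC-1α against GFP. By limma, 0 of 44 carriers passed, where 0.555% of all genes did, and 9 carriers and 3165 genes had an unadjusted p under 0.05. Of those 9 carriers, 7 had a larger construct change with DFO. The difference was 0.68 for Slc25a5 (95% interval 0.42 to 0.94, adjusted p = 0.0688), 0.62 for Slc25a39 (0.34 to 0.91, adjusted p = 0.0925) and 0.46 for Slc25a28 (0.05 to 0.86, adjusted p = 0.245). It was 0.52 for Slc25a20, 0.37 for Slc25a12, 0.71 for Slc25a13 and 0.43 for Slc25a40, with adjusted p between 0.152 and 0.287. The other 2, Slc25a34 at -1.15 and Slc25a46 at -0.48, had the smaller construct change with DFO (adjusted p = 0.179 and 0.139). These differences depend on the scaling. The spike-in scale moves each of them up by 0.44, nearly the size of the difference of Slc25a46. It turned the sign for 10 of the 44 carriers, and 0 passed. Slc25a5, Slc25a20 and Slc25a39 share a course in which DFO lowered them in GFP cells while the 2 construct groups differed by -0.02, 0.03 and 0.00 on the log2 scale (adjusted p = 0.881 for the first and second). Those differences were 0.42, 0.47 and 0.44 on the spike-in scale (adjusted p = 0.133, 0.0820 and 0.133), so the course depends on the scaling. Some settings passed carriers here. With the 9096 genes above the median level alone, Slc25a5, Slc25a20, Slc25a34, Slc25a39 and Slc25a46 passed, and with the trend and robust options of eBayes Slc25a5, Slc25a12, Slc25a34, Slc25a39 and Slc25a46 did.

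**Figure D3:**
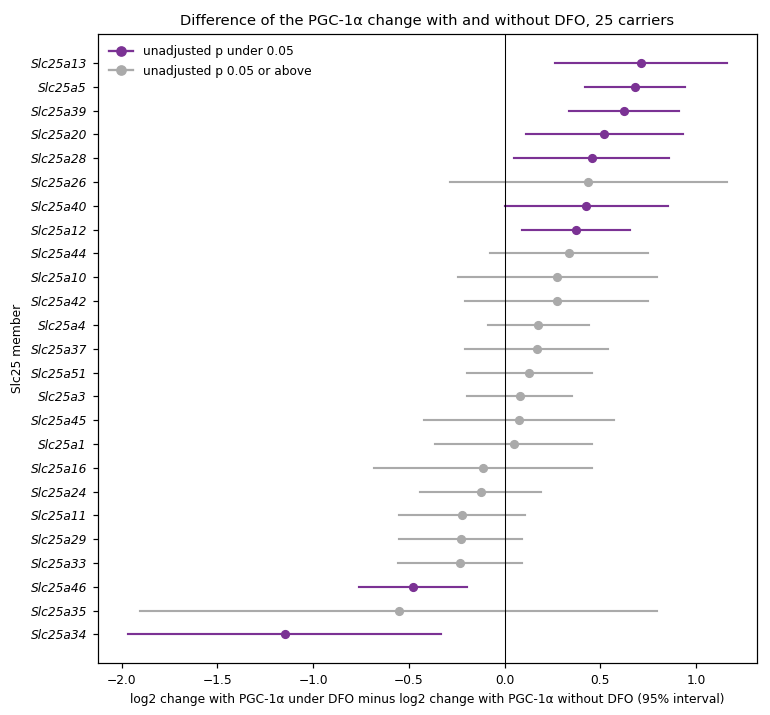
Difference of the construct's log2 change with DFO minus without DFO (x axis) with its 95% interval for the 25 carriers called in at least 1 comparison (y axis, largest at the top). In purple, 7 intervals lie above 0 and 2 below 0, and none passed after adjustment over all genes. Values are those on the deposited scale.

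Set against GFP alone, GFP-PGC-1α+DFO had 15 carriers higher and 4 lower, where 13.5% of all genes were higher and 18.3% lower. The median log2 change was 0.24 over the carriers and -0.01 over all genes. Both mitoferrins were higher, Slc25a28 by 1.28 ± 0.11 (adjusted p = 0.000982) and Slc25a37 by 0.68 ± 0.10 (adjusted p = 0.00644). Slc25a5 was higher by 0.95 ± 0.07 (adjusted p = 0.000635), Slc25a20 by 1.01 ± 0.12 (adjusted p = 0.0023) and Slc25a1 by 1.39 ± 0.11 (adjusted p = 0.000777), and these 5 calls remained without each array in turn. Slc25a14, Slc25a16, Slc25a24 and Slc25a45 were lower. On the spike-in scale 25 were higher and 1 lower. Without GFP-PGC-1α+DFO replicate 2 the count of calls was 12, against 19 with all arrays.

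Genes that work with the carriers were counted from lists that, like the members, were chosen with earlier results of these data known. Of all genes, 4.96% rose and 4.77% fell with the construct without DFO, and 6.93% rose and 12% fell with DFO present. With the construct, 4 of 4 measured genes of the malate-aspartate shuttle rose in both settings, Got1, the cytosolic aspartate aminotransferase, by 1.68 ± 0.10 without DFO and by 2.09 ± 0.10 with it (adjusted p = 0.00256 and 0.000776). Mpc1, a subunit of the mitochondrial pyruvate carrier, which is no Slc25 member, rose by 1.44 ± 0.08 without DFO and by 1.99 ± 0.08 with it (adjusted p = 0.00224 and 0.000725). Of the 3 measured enzymes of the carnitine shuttle, 3 rose without DFO and 2 with it, and of the 3 porins of the outer membrane 2 rose without DFO and 1 with it. Of 5 genes listed for mitochondrial iron use (Fech, Abcb10, Alas1, Iscu and Nfs1), 3 rose without DFO. Alas1, the first enzyme of haem synthesis, rose by 1.86 ± 0.09 (adjusted p = 0.00186). With DFO present 3 of the 5 rose and 1, Fech, which inserts iron into haem, was lower. Its log2 change was -0.37 ± 0.09 (adjusted p = 0.0411), but 0.25 on the spike-in scale (adjusted p = 0.322). That scale also ended the construct's calls without DFO on Vdac1, Vdac2, Cpt1a, Cpt2, Crat, Mdh1, Mdh2 and Nfs1. Of 4 carriers under other symbols, Ucp1, Ucp3, Mtch1 and Mtch2, 0 were called with the construct by limma, and 1, Mtch2, had an unadjusted p under 0.05 in each setting.

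With DFO the same lists fell in part. Of all genes, 11.4% rose and 14.2% fell in GFP-PGC-1α cells, and 11.8% rose and 12.5% fell in GFP cells. Among the 5 genes of mitochondrial iron use 4 fell in GFP-PGC-1α cells and 3 in GFP cells. Fech was lower at -1.06 ± 0.09 and -0.74 ± 0.09 (adjusted p = 0.00106 and 0.00365). Got1 was the 1 gene of its list to fall, in both backgrounds. On the deposited scale Mpc1 was called lower with DFO in GFP cells, at -0.84. In GFP-PGC-1α cells Mpc1 gave -0.29 and was not called. In the carnitine shuttle Cpt1a, the entry enzyme of the outer membrane, rose by 0.88 ± 0.14 in GFP-PGC-1α cells and by 0.55 ± 0.14 in GFP cells (adjusted p = 0.00944 and 0.0442), while Crat, the matrix acetyltransferase, was lower at -0.92 ± 0.10 and -1.36 ± 0.10 (adjusted p = 0.00298 and 0.000994). Vdac1, a porin, rose by 0.35 ± 0.08 and 0.93 ± 0.08 in the same 2 backgrounds (adjusted p = 0.0258 and 0.00123). The other 2 porins went the other way, Vdac2 lower in GFP cells and Vdac3 lower in both backgrounds. Mtch1, an outer-membrane relative of the carriers, was the 1 gene of its list called, and was lower in both. On the spike-in scale the DFO calls on Fech, Alas1, Mtch1 and Vdac3 were lost in both backgrounds, those on Vdac2 and Cpt1a in GFP cells, and those on Crat, Cpt2, Got1, Iscu and Nfs1 in GFP-PGC-1α cells, where Vdac3 and Iscu turned in sign.

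Most carriers with more than 1 bright probe set gave the same direction in each. Among carriers called in GFP-PGC-1α against GFP, 8 had further probe sets above the median gene level, and in 8 of 8 these had the sign of the one used. The counts were 9 of 9 in GFP-PGC-1α+DFO against GFP+DFO, 5 of 5 in GFP+DFO against GFP and 4 of 5 in GFP-PGC-1α+DFO against GFP-PGC-1α, with Slc25a10 the exception. Sign is a loose measure here, since the second probe set of Slc25a51 counts among the 9 at a change of 0.00165. Averaging all probe sets per carrier ended 5 of 15 calls for the construct without DFO (Slc25a16, Slc25a26, Slc25a33, Slc25a35 and Slc25a39) and 4 of 17 with it (Slc25a3, Slc25a42, Slc25a44 and Slc25a51). It ended 5 of 13 calls for DFO in GFP cells (Slc25a3, Slc25a4, Slc25a12, Slc25a39 and Slc25a45) and 3 of 13 in GFP-PGC-1α cells (Slc25a3, Slc25a4 and Slc25a10). Slc25a16, Slc25a33, Slc25a35 and Slc25a45 have 1 probe set each, so averaging left their own values as they were. Their calls ended through the fit and the adjustment over all genes, and say nothing of agreement between probe sets. Averages also took in dim probe sets, at mean intensities of 1.58 for Slc25a39, 52.7 for Slc25a3, 15.2 for Slc25a42 and 21.0 for Slc25a51. The 3 other bright probe sets of Slc25a39 gave 0.63 to 1.21 for the construct without DFO. The 8 probe sets of Slc25a5 gave log2 changes of 0.88 to 1.65 for the construct without DFO and 1.46 to 2.47 with it. The probe sets used for Slc25a4, Slc25a5 and Slc25a39 have names ending in _x_at, which marks probes that may bind related transcripts, and the members of these close families cannot be fully told apart on them. For Slc25a12 the dimmer probe set gave 2.02 and 0.81 for the construct without and with DFO, against 1.29 and 1.67 for the one used, so the order of the 2 changes depended on the probe set.

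The probe sets of Slc25a30 differed in direction, as noticed after its values were seen. The one used gave 0.34 and 0.02 for the construct without and with DFO, and 3 dimmer ones above the median gene level gave -0.53 to -0.24 and -0.72 to -0.37. With DFO the one used gave -0.10 in GFP-PGC-1α cells and 0.22 in GFP cells, and the other 3 gave 0.31 to 0.84 and 0.44 to 0.95. In a fit of each of the 45037 probe sets on its own, 1 of these 3, the brightest, was called higher with DFO in both backgrounds (adjusted p = 0.0174 and 0.0286).

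**Figure D4:**
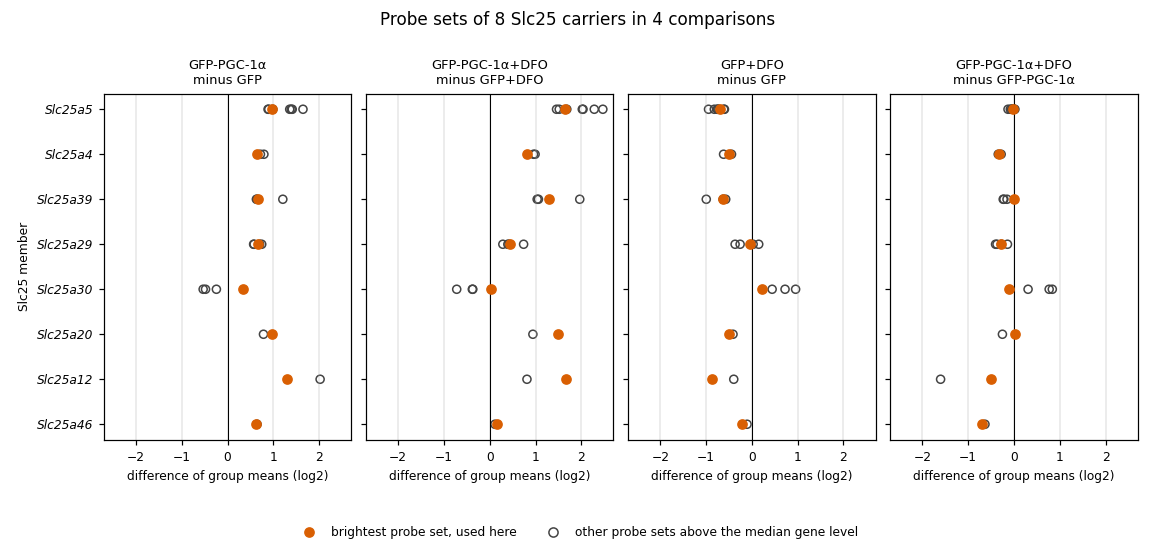
Difference of group means on the log2 scale (x axis) for each probe set above the median gene level of 8 carriers (y axis) in 4 comparisons, with the brightest probe set in orange and the others as open circles. The circles of Slc25a5, Slc25a4 and Slc25a39 lie on the same side of 0 as the orange point in the first 3 panels, while those of Slc25a30 lie apart from it.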

How the data were processed

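RNA of 8 cultures, 2 in each of 4 groups, was hybridised to Affymetrix Mouse Genome 430 2.0 arrays. The deposited values are linear intensity per probe set, and the sources used here do not say how the authors summarised and scaled them. Of 45101 probe sets, 64 controls were left out and 34945 carried 1 symbol, 932 several and 9160 none in GEO's platform annotation. Intensities as deposited were taken to log2 with no pseudocount or filter, and each of 18193 genes was represented by its probe set of highest mean.

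One model with a mean per group was fitted to all 8 arrays with limma 3.58.1 in R 4.3.3, and p-values were adjusted over all genes by the Benjamini-Hochberg method, with a threshold of 0.05. The fit was tested on simulated data. An exact permutation test of 2 against 2 arrays cannot go below p = 0.333. Tables and figures were made with Python 3.11.15, pandas 2.3.3 and matplotlib 3.10.9.

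Every Slc25a member could be named, by cargo. Values per array were given for the iron carriers, Slc25a4, Slc25a5, Slc25a20 and the 3 called members of largest change in each direction of the 4 single-factor comparisons, and for a few more by class. The members and lists were chosen with earlier results of these data known. Alternatives were quantile normalization, scaling to poly-A spike-ins, the mean over a gene's probe sets, leaving out those with names in _x_at or _s_at, a filter and a floor on dim values, trend and robust variance, a fit of only the groups compared, the replicate number as a block, and each array left out. Same-numbered arrays deviated together with r between -0.110 and 0.221 over the 6 pairs of groups, so the numbers were not taken to pair the samples. Promoter sequences came from RefSeq (GRCm38.p6).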

Additional observations from a re-analysis of the deposited data

How the results depend on the processing

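Of 77 carrier calls over the 6 comparisons, 23 were kept in every alternative other than the fit of only the groups compared. Quantile normalization kept 76, the floor on dim values 77, the trend and robust options 75, leaving out probe sets ending in _x_at or _s_at 75, and the mean of probe sets 56. With the replicate number as a block, 60 were kept, and the counts of calls were 12 and 13 for the construct without and with DFO, 11 and 10 for DFO in GFP and GFP-PGC-1α cells, 0 for the interaction and 14 for both treatments together, against 15, 17, 13, 13, 0 and 19 without the block. In a limma fit of only the groups compared, GFP-PGC-1α against GFP gave 0 calls, with 19 carriers at an unadjusted p under 0.05, GFP-PGC-1α+DFO against GFP+DFO gave 8, GFP-PGC-1α+DFO against GFP-PGC-1α gave 6 and GFP-PGC-1α+DFO against GFP gave 10; this fit has fewer arrays. Scaling to all 27 spike-in probe sets gave 5 calls for DFO in GFP cells and 7 in GFP-PGC-1α cells, and scaling to 24, without Trp, which read near background, gave 6 for the construct without DFO, 4 for DFO in GFP cells and 7 in GFP-PGC-1α cells. The interaction gave 5 calls with genes above the median level, 1 with the floor and 5 with the trend and robust options. Leaving out 1 array at a time gave 3 to 13 calls for the construct without DFO and 8 to 17 with it, 5 to 13 and 7 to 11 for DFO in GFP and GFP-PGC-1α cells, 0 for the interaction and 12 to 17 for both treatments. Of the 82 single-carrier results recomputed this way (the 77 calls and the uncalled ones of the mitoferrins), signs reversed for 3 carriers. Slc25a37 in GFP-PGC-1α+DFO against GFP+DFO, not called, gave a log2 change of 0.00310 with quantile normalization, 0.41 and 0.52 on the spike-in scales with and without Trp, and -0.20 to 0.020 with 1 array left out, above 0 without GFP-PGC-1α+DFO replicate 2. In GFP-PGC-1α+DFO against GFP-PGC-1α, Slc25a3 gave 0.0737 and 0.16 on those scales and 0.0320 with the mean of probe sets, and Slc25a4 gave 0.0304 and 0.11. The cause was not tested. With 2 arrays per group and 13 carriers not above the median gene level, small changes of dim carriers were not detectable here.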
